A study of Mus musculus with 56 samples.

Results

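The response of mouse blood to internal 90Sr was compared between days 25 and 30 after injection. For each gene the 90Sr effect at day 25 (90Sr-injected minus control) was subtracted from the 90Sr effect at day 30, which gives a difference of differences on the log2 scale, where a value of 1 is 2-fold. This comparison used 24 of the 56 arrays in the series, all those of days 25 and 30, with 6 control and 6 90Sr-injected mice at each day and 1 array per mouse. All mice were C57BL/6, received at approximately 10 to 12 weeks of age and 25 to 30 g and quarantined for 14 days. The 90Sr groups had received 200 kBq of 85/90SrCl2 in 0.05 mL by tail vein, and the control groups had received vehicle. Whole blood was taken by cardiac puncture into an RNA-stabilising solution, globin transcripts were reduced, and Cy3-labelled cRNA was hybridised to whole-genome mouse arrays with 1 colour. Separate mice were killed at each day, so the 5 days between the groups are a comparison of different animals.

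Strontium is taken up like calcium and deposits in bone, where the beta particles of 90Sr and its daughter reach the marrow. Blood cells differ in sensitivity: B lymphocytes are among the most radiosensitive, while reticulocytes, the young red cells that still hold RNA, are replaced from the marrow continually. A difference between 2 effects has 4 group means in it, so it can arise in the 90Sr mice or in the controls that serve as their reference, and each named gene is therefore given in all 4 groups. In whole blood, fewer cells of a type and less RNA per cell cannot be told apart.

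Several array-level features differed between the groups. On the raw scale, the array median of log2 signal was lower at day 30 than at day 25 in controls by 0.45 (exact permutation test, two-sided, adjusted p = 0.026) and in 90Sr mice by 0.38 (adjusted p = 0.026 by the same test over 12 comparisons), which scaling to the median removed. Spots well above background numbered 20433 to 21615 in the day 25 controls and 19652 to 24698 in the day 30 controls, against 14739 to 19119 and 14850 to 19590 in the 90Sr groups. The spike-in probes, which report RNA added in fixed amount, stood 1.60 higher above the array median at day 30 than at day 25 in controls and in 90Sr mice alike (exact permutation test, two-sided, adjusted p = 0.0058 for each). Replicate 4 of the day 30 controls had the fewest spots above background of the 12 controls, 19652. All day 25 arrays were scanned on 1 day. The day 30 controls shared a scan day with replicates 1 and 2 of the day 30 90Sr mice, whereas replicates 3 to 6 were scanned on another day with no other group. After the group mean was removed, the residuals of replicates 1 and 2 correlated at 0.43 across genes, and those between the 2 scan days at -0.57 to -0.33, a description across genes that are not independent. For most of the genes described, the value within the shared scan day, which leaves out replicates 3 to 6, is therefore given too. Markers of B cells (Cd79a), T cells (Cd3e), neutrophils (S100a8), erythroid cells (Alas2) and platelets (Pf4) were well above background on 24 of 24 arrays.

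With all 24 arrays, most genes passed for a 90Sr effect at both days, and few passed for a change in it. Of 14580 genes tested, 69.2% passed an adjusted p of 0.05 for the 90Sr effect at day 25 and 72.2% at day 30 (limma, Benjamini-Hochberg), and 8104 genes passed at both days in 1 direction against 69 in opposite directions. With the slide as a fixed block 4 genes passed at day 25 and 1620 at day 30, and on the slides that held both groups none passed at day 25 (limma, 4136 at an unadjusted p of 0.05) and 2020 at day 30. Both settings compare 2 control with 2 90Sr mice at each day, the only mice that shared a slide. They therefore have less power than the fit of all 24 arrays. For the difference of the 2 effects, 296 genes passed (2.03% of those tested), 188 with a higher effect at day 30 (1.29%) and 108 with a lower effect (0.741%). Of these, 289 also differed by at least 2-fold. The split depended on the scaling: scaled to the 75th percentile instead of the median, 34 genes were higher and 185 lower, and with quantile normalization 47 were higher and 115 lower. In the authors' processed values 55 were higher and 389 lower. Median scaling placed the median difference of all genes at 0.17 and the 75th percentile placed it at -0.13, so small differences carry no direction. Each of the 296 kept its sign under both scalings and under quantile normalization. With 289 of them at 2-fold or more, the kept signs were largely set by the choice of genes. Of the 296, 142 passed again with the 75th percentile and 103 with quantile normalization.

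**Figure D1:**
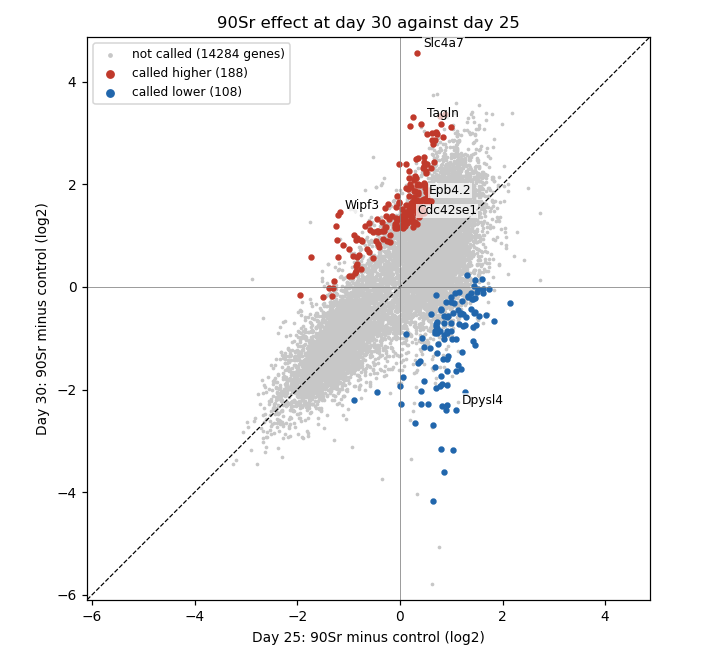
Each point is 1 of 14580 genes, with its 90Sr effect at day 25 on the horizontal axis and at day 30 on the vertical axis, both as mean log2 difference from the controls of that day. The 188 genes called higher at day 30 (red) lie above the dashed line of equal effects and the 108 called lower (blue) below it, mostly in the quadrant with a positive effect at day 25 and a negative effect at day 30.

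The 2 directions had different forms. Among the 188 genes with a higher effect at day 30, 119 had positive effects at both days and a larger one at day 30, and 64 went from a negative to a positive effect. Among the 108 with a lower effect, 101 went from a positive effect at day 25 to a negative one at day 30. Taken over the 296, the effect itself was called at day 30 but not at day 25 in 169 genes, and at day 25 but not at day 30 in 56. The 5843 genes whose probe was well above background on all 24 arrays held 160 of the calls (2.74% of these genes, beside 2.03% of all genes), 134 higher and 26 lower. The 4561 genes above background on 12 to 23 arrays held 61 (1.34%), 33 higher and 28 lower. The 4176 genes above background on fewer than 12 arrays held 75 (1.80%), 21 higher and 54 lower. Dim probes were thus not called more often, but the lower calls were drawn more from them than the higher calls were.

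With median scaling, the controls carried more of the difference than the 90Sr mice. The controls of days 25 and 30 were on different slides and scan days, and the parts of mice and batch cannot be told apart. The difference of differences equals the change from day 25 to day 30 in 90Sr mice minus the change in controls, and in 240 of the 296 called genes (81.1%) the change in controls was the larger, compared with 51.4% of all genes tested. The median share of the difference that came from the controls was 0.707 over the 296 (0.667 for higher and 0.999 for lower), compared with 0.534 over all genes. The called genes were chosen on this difference, so the direction of either change is not independent of the choice, and no test was applied to the shares. The shares and the directions of change belong to median scaling. Spike-in scaling lowers each change by 1.60 in controls and in 90Sr mice alike, which keeps the differences but not the shares. In controls, 14.7% of genes passed for the change from day 25 to day 30 (7.98% higher and 6.69% lower at day 30), and in 90Sr mice 11.9% passed. Within the 296, only the change in controls passed in 206 genes, only that in 90Sr mice in 45, both in 34 and neither in 11. Of the 188 higher genes, 185 were lower in controls at day 30 than at day 25 and 180 were higher in 90Sr mice. Of the 108 lower genes, 107 were higher in controls at day 30, while the 90Sr mice were lower in 54 and higher in 54.

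**Figure D2:**
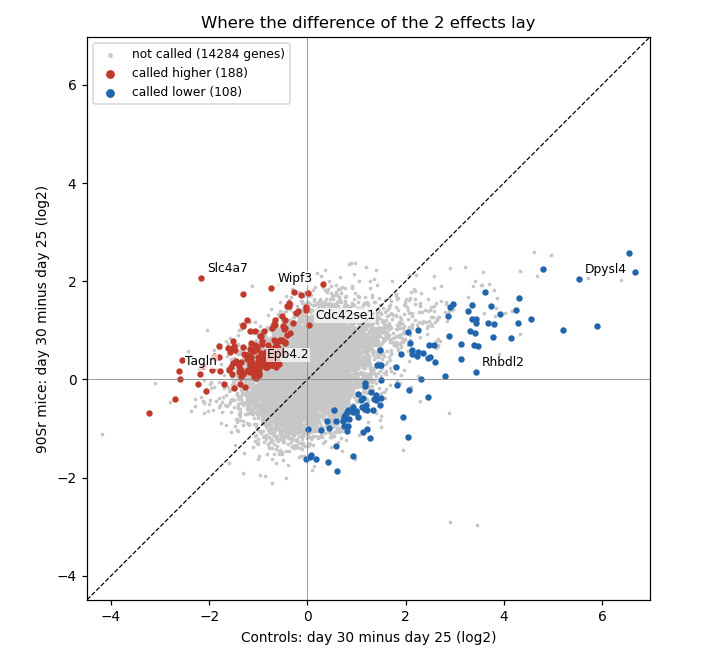
Each point is 1 of 14580 genes, with the change from day 25 to day 30 in controls on the horizontal axis and in 90Sr mice on the vertical axis (log2, means of 6 arrays). Genes called higher (red) lie to the left of the dashed line of equal changes and genes called lower (blue) to the right, and the spread of the called genes is wider along the control axis (median size 1.07) than along the 90Sr axis (median size 0.56).

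The other days' controls gave a further reference. Each control group was tested against the mean of the other 4 control groups, and the genes that passed made up 5.28% for day 4, 9.07% for day 7, 30.4% for day 9, then 19.0% for day 25 and 24.1% for day 30, so departures of a control group were not limited to day 30. Among the 296 called genes, the mean of the day 30 controls lay beyond the means of all other control days in 272 (91.9%, 172 below and 100 above), compared with 41.9% of all genes tested. The day 25 controls did so in 76 (25.7%, compared with 48.2% of all genes). Among the 90Sr groups of the 5 days, the day 25 mice lay beyond the others in 134 of the called genes (45.3%, compared with 33.1% of all genes) and the day 30 mice in 96 (32.4%, compared with 39.6%). When the day 30 controls were replaced by the mean of the controls of days 4, 7, 9 and 25, 262 of the 296 differences kept their sign, the median ratio to the original difference was 0.281, and over all genes 2 passed, with 1287 at an unadjusted p of 0.05. The median ratio was 0.306 for the higher genes and 0.183 for the lower genes. The 296 genes were chosen on a contrast that holds the means of the day 25 and day 30 groups. Their shares and ratios are therefore not independent of that choice, and the shares over all genes are not an even comparison. The controls of the other days were scanned on other days, and their part in this value cannot be told apart from that of the mice.

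The largest lower differences were in genes whose signal was high in the day 30 controls. The 12 largest were Dpysl4, Sapcd2, Zfp316, Rhbdl2, Evx2, C2cd4a, Dio1, Pla2g1b, Zfp790, Prickle1, Ppyr1 and Oxtr, with differences from -3.48 to -1.85. They include a homeobox factor (Evx2), an intramembrane protease (Rhbdl2), a thyroid hormone deiodinase (Dio1), a planar cell polarity protein (Prickle1) and the receptors for pancreatic polypeptide (Ppyr1, now Npy4r) and oxytocin (Oxtr), genes better known from tissues other than blood. In all 12, every day 30 control lay above every day 25 control, by 2.08 to 5.53 on the mean. In 11 of the 12, replicates 1 and 2 of the day 30 90Sr mice, scanned with those controls, lay above replicates 3 to 6. In 11 of the 12 the day 4 controls also lay wholly above the day 25 controls, and in 10 the ranges of the day 4 and day 30 controls overlapped. The 12 were chosen on a contrast that holds the group means of days 25 and 30, so these counts are not independent of the choice. Over all genes, 7.98% passed as higher in controls at day 30, and the share with groups wholly apart was not counted.

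Dpysl4, a member of the dihydropyrimidinase-related family of axon guidance proteins, had the largest of these differences. Its levels relative to the array median (lowest, median, highest of 6 mice) were 1.28, 1.85 and 2.13 in day 25 controls and 2.41, 2.91 and 3.59 in day 25 90Sr mice, compared with 6.45, 7.52 and 7.86 in day 30 controls and 3.40, 4.07 and 7.55 in day 30 90Sr mice. At day 25 the 90Sr mice all lay above the controls, and at day 30 the ranges overlapped because replicates 1 and 2 of the 90Sr mice, at 6.96 and 7.55, lay among the controls while the other 4 lay between 3.40 and 4.29. The 90Sr effect went from 1.09 to -2.40, a difference of -3.48 ± 0.72 (SE, limma adjusted p = 0.020). The probe lies at chromosome 7, 146287614 to 146287673 on mm9. Controls changed by 5.53 and 90Sr mice by 2.05 in the same direction. Within the shared scan day the difference was -1.21 ± 0.43, and with the day 30 controls replaced it was 0.22. In day 4 mice the gene ranged from 6.47 to 7.38 in controls and from 6.77 to 7.97 after 90Sr, so the high level was not confined to day 30.

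In Rhbdl2 the change passed in controls but not in 90Sr mice (adjusted p = 0.848). Day 25 controls ranged from 0.66 to 1.40 (median 1.29), day 25 90Sr mice from 1.66 to 2.34 (2.09), day 30 controls from 3.22 to 6.53 (4.65) and day 30 90Sr mice from 1.34 to 3.47 (1.95). The 90Sr groups of the 2 days overlapped and differed by 0.14, whereas the control groups were apart by 3.43. The difference was -3.28 ± 0.57 (adjusted p = 0.011) with all arrays and -2.23 ± 0.61 within the shared scan day (probe at chromosome 4, 123491569 to 123491628). Zfp316, a zinc finger protein, gave -3.31 ± 0.60 (-1.89 ± 0.56 within the shared scan day), but a second detected probe of the gene gave 0.34, so its value belongs to the probe used. Dio1 was likewise split, with -2.65 from the probe used (-1.26 within the shared scan day) and 0.93 and -0.37 from 2 others, and Ppyr1 gave -0.51 within the shared scan day and 0.20 from its other probe. Pla2g1b, a secreted phospholipase, kept its direction on a second probe, with -2.58 and -0.73, and gave -1.31 within the shared scan day.

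The 12 largest higher differences were in Slc4a7, Tagln, Jmjd6, Cox17, Nos3, Tas2r109, Usp17lc, Cnga2, Bcorl1, Slco1c1, Ogfod1 and Dctn6, from 4.23 to 2.12. In 10 of the 12 every day 30 control lay below every day 25 control. In 11 of the 12 the day 30 90Sr mice lay wholly above the day 30 controls, with effects of 2.39 to 3.18. Slc4a7 was the exception, with overlapping ranges and an effect of 4.57. At day 25 the effects of the 12 were -0.01 to 1.0. Replicates 1 and 2 of the day 30 90Sr mice lay below replicates 3 to 6 in 10 of the 12, that is, on the side of the controls scanned with them. These counts too are not independent of the choice of genes, which used the same group means. Over all genes, 6.69% passed as lower in controls at day 30 and 35.2% as higher after 90Sr at day 30. The share with groups wholly apart was not counted.

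Tagln encodes transgelin, an actin-binding protein best known from smooth muscle. Day 25 controls ranged from 8.95 to 9.86 (median 9.23), day 25 90Sr mice from 8.96 to 10.82 (9.54), day 30 controls from 5.79 to 7.68 (6.60) and day 30 90Sr mice from 7.90 to 10.74 (10.36). The day 30 controls stood below all other mice of the 4 groups. The 90Sr effect was 0.41 at day 25 and 3.18 at day 30, a difference of 2.78 ± 0.59 (adjusted p = 0.022, probe at chromosome 9, 45738097 to 45738156). Controls fell by 2.61 and the 90Sr mice differed by 0.17, with a difference of 1.57 ± 0.61 within the shared scan day and 0.20 with the day 30 controls replaced.

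Cox17, the copper chaperone for cytochrome c oxidase, was low in the same way. Its levels were 2.35 to 3.16 in day 25 controls, 2.87 to 4.12 in day 25 90Sr mice, 0.15 to 1.22 in day 30 controls and 2.38 to 4.50 in day 30 90Sr mice, so that the day 30 controls stood alone. The difference was 2.39 ± 0.45 (adjusted p = 0.012) and 1.5 ± 0.46 within the shared scan day, while another detected probe of Cox17 gave -0.31. Slc4a7, a sodium bicarbonate cotransporter, had the largest difference and the widest error, 4.23 ± 1.12 (adjusted p = 0.047). In day 30 90Sr mice it spanned 1.47 to 9.28 (median 5.89), with 1.47 and 4.25 in replicates 1 and 2 and 5.57 to 9.28 in the others, compared with 0.75 to 1.80 in day 30 controls. Within the shared scan day its difference was 1.29 ± 0.96, and its other probe gave 0.72. Across the 296 called genes, 67 had other detected probes, and 71 of those 87 probes had the same sign with a median of 0.46 in the direction called, compared with a median size of 1.41 for the probes used.

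A smaller set changed in the 90Sr mice while the controls stayed within 0.25 between the days. The rule for such genes named 3, and all 3 were higher at day 30. Cdc42se1, a small effector of the GTPase Cdc42, was 3.74 to 4.48 in day 25 controls (median 4.33), 4.19 to 4.85 in day 25 90Sr mice (4.39), 4.06 to 4.47 in day 30 controls (4.24) and 5.07 to 5.87 in day 30 90Sr mice (5.68). The day 30 90Sr mice lay above all other mice of the 4 groups, and replicates 1 and 2, at 5.07 and 5.15, were the lowest of them. The effect was 0.22 at day 25 and 1.29 at day 30, a difference of 1.08 ± 0.27 (adjusted p = 0.037), with a change of 0.03 in controls and 1.11 in 90Sr mice. It was 0.64 ± 0.29 within the shared scan day and 0.81 with the day 30 controls replaced, and 2 other probes gave 0.56 and 0.03. Mpdu1, needed for the use of dolichol-linked mannose in glycosylation, showed a difference of 1.59 ± 0.40 (adjusted p = 0.037), 1.09 ± 0.46 within the shared scan day, and -0.04 on its other probe. Pvrl1, now Nectin1, a cell adhesion molecule, went from -0.29 to 1.17, a difference of 1.46 ± 0.39 (adjusted p = 0.047). In day 30 90Sr mice Pvrl1 was 2.01 and 2.20 in replicates 1 and 2 and 3.29 to 4.03 in replicates 3 to 6, and its within-scan-day difference was 0.49 ± 0.34.

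**Figure D3:**
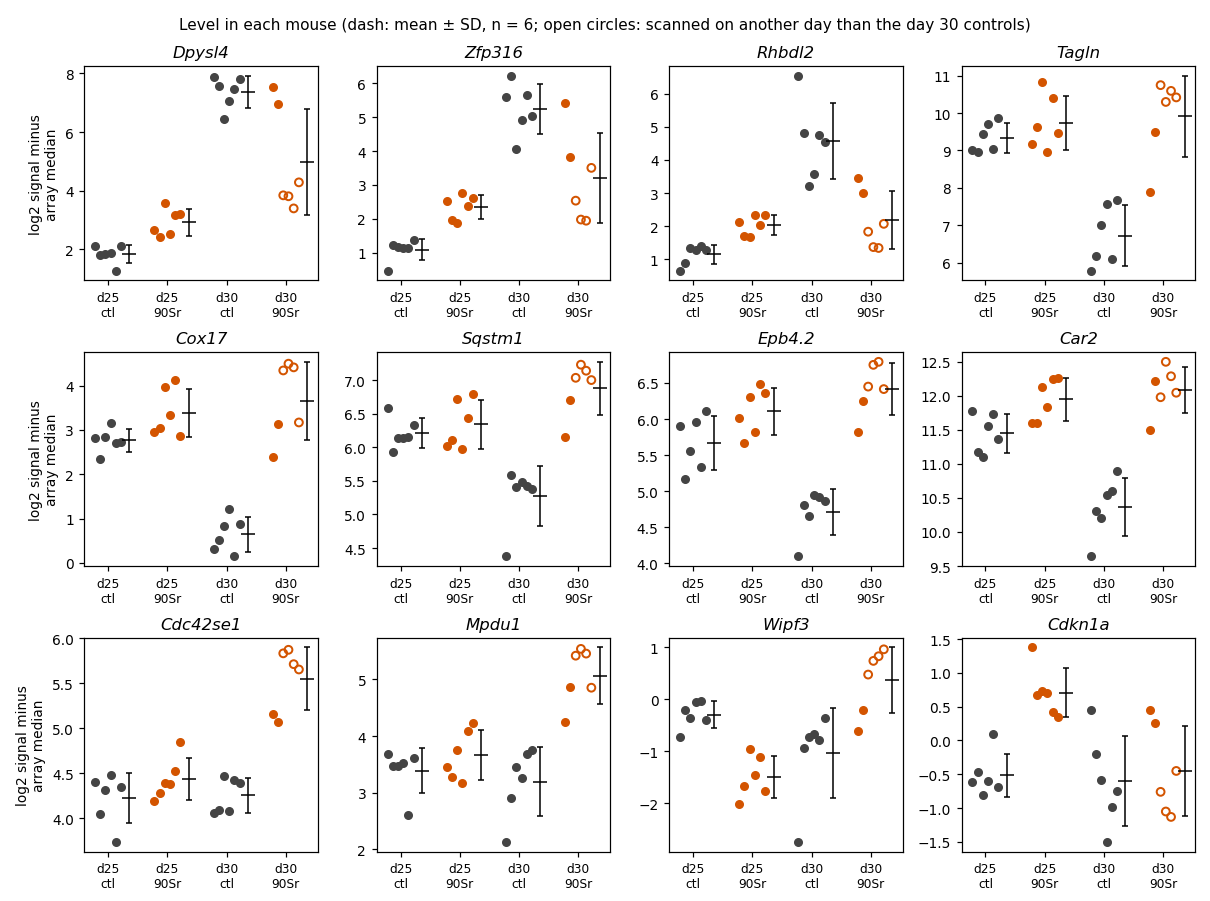
Each panel shows 1 gene, with the log2 signal minus the array median of each mouse in the 4 groups (d25 and d30, days 25 and 30; ctl, control), the dash and bar giving the mean ± SD of 6 mice. Open circles are the 4 day 30 90Sr arrays scanned on another day than the day 30 controls, and in Dpysl4 the 2 filled points of that group lie at 6.96 and 7.55, among the controls.

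Only 2 genes were called in opposite directions at both days under the stricter rule of an unadjusted p of 0.001 with at least a 2-fold effect. The transcript ENSMUST00000060348 ranged from -0.67 to 0.15 in day 25 controls and 0.25 to 1.80 in day 25 90Sr mice, but from 2.86 to 4.13 in day 30 controls and 1.21 to 2.14 in day 30 90Sr mice. No group overlapped another of the same day. At day 25 it was well above background in no control and in 2 of 6 90Sr mice. The mean of all 6 90Sr mice was at least 2.07-fold higher by their measured values. That mean includes mice not well above background, so the bound is not firm. The difference for this transcript was -2.79 ± 0.38 (limma adjusted p = 0.0013). It was -2.29 ± 0.44 within the shared scan day and -0.23 with the day 30 controls replaced. Wipf3, of the family that binds WASP, went the other way, from -1.20 to 1.40, but was well above background in no day 25 90Sr mouse and in only 2 of 6 mice of each other group, so no fold is given.

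Red cell genes shared 1 direction. All 35 erythroid genes tested had a positive difference (9105 of all 14580 genes did), with a median of 0.70, compared with 0.17 over all genes. Of the 35, 4 passed as higher (1.29% of all genes did), whereas 22 were higher at an unadjusted p under 0.05 (limma, 13.8% of all genes). With the 75th percentile scaling the list median was 0.40 beside -0.13 over all genes, and with quantile normalization 0.33 beside -0.03. The 90Sr effect on the list was 0.56 at day 25, with 27 of 35 genes called higher (30.1% of all genes were), and 1.26 at day 30, with 35 of 35 (35.2% of all genes). With spike-in scaling, which lowered the effects of all genes alike by 0.51, the list effects were 0.05 and 0.75. The median level of the list was 7.87 to 8.35 in day 25 controls, 6.99 to 7.33 in day 30 controls, 8.21 to 8.87 in day 25 90Sr mice and 8.11 to 8.94 in day 30 90Sr mice. The 2 control groups did not overlap, while the 2 90Sr groups did. With median scaling the change in controls was thus the larger part, with a list median of -0.59 and 18 genes called lower (6.69% of all genes were). The 90Sr mice had a list median of 0.21. The change in controls cannot be told apart from slide and scan day. Within the shared scan day the list median was 0.50, and with the day 30 controls replaced 0.30.

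Among the called erythroid genes, Epb4.2, now Epb42, protein 4.2 of the membrane skeleton, ranged from 5.17 to 6.11 in day 25 controls (median 5.73), 5.67 to 6.48 in day 25 90Sr mice (6.16), 4.1 to 4.94 in day 30 controls (4.84) and 5.81 to 6.79 in day 30 90Sr mice (6.43). The day 30 groups stood apart and the day 25 groups overlapped. Its effect went from 0.44 to 1.69, a difference of 1.26 ± 0.31 (adjusted p = 0.036, probe at chromosome 2, 120844440 to 120844499), with controls down by 0.96 and a change of 0.30 in 90Sr mice that did not pass. Within the shared scan day it was 0.88 ± 0.35, and 0.73 on its other probe. Car2, carbonic anhydrase, ranged from 11.10 to 11.78 in day 25 controls, 11.60 to 12.27 in day 25 90Sr mice, 9.64 to 10.90 in day 30 controls and up to 12.50 in day 30 90Sr mice (median 12.13), with the same pattern of overlap. Its difference was 1.22 ± 0.31 (adjusted p = 0.041), and 0.99 ± 0.37 within the shared scan day. Alas2, the first enzyme of haem synthesis in red cells, had a difference of 0.18 that did not pass, and its probe was saturated on 3 of 24 arrays.

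The promoters of Epb42 and Alas2 are shown because erythroid genes are known targets of GATA and CACCC-binding factors and these 2 windows hold such words. Each runs from 250 bases before to 50 after the RefSeq start (GRCm38.p6, Epb42 at chr2:121036828-121037127 on the minus strand, Alas2 at chrX:150547167-150547466 on the plus strand), with capitals marking AGATAA or CCACCC on either strand (TTATCT and GGGTGG on the printed strand).
Epb42: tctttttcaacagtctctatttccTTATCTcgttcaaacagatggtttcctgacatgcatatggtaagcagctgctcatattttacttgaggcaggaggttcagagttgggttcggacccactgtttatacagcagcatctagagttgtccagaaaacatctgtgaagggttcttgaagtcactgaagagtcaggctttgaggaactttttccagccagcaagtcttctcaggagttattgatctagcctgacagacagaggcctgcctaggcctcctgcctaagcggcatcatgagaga
Alas2: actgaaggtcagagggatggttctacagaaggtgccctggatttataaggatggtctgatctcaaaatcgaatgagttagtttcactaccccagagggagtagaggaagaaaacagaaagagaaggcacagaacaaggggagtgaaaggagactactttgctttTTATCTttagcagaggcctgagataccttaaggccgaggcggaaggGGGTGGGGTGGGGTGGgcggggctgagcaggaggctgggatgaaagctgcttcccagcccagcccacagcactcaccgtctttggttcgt
Of the 35 erythroid genes, 22 had a promoter that was counted, with 27 promoters between them. A single chromosome was left out of this count but not out of the shares over all promoters. AGATAA was in 8 of the 27 (11.2% of all 32851 promoters held it) and CCACCC in 11 (31.5% of all promoters). These are letter matches only, and binding was not measured.

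Platelet genes had the highest list median, from few genes. Of the 24 listed, all on the array, only 8 passed the filters on detection and variation, so the values leave out the others. All 8 tested were positive (9105 of all 14580 genes were), with a median of 1.1 (0.80 with the 75th percentile, 0.73 with quantile normalization). Of the 8, 7 were higher at an unadjusted p under 0.05 (limma, beside 13.8% of all genes). The 90Sr effect on the list was -0.08 at day 25, and 1.04 at day 30 with 7 of 8 called higher (35.2% of all genes). With spike-in scaling these effects were -0.59 and 0.53. Controls had a list median of -0.74, with 4 genes called lower (6.69% of all genes). P2ry12, the ADP receptor of platelets, was the called gene, at 6.97 to 7.26 in day 25 controls, 6.66 to 7.77 in day 25 90Sr mice, 5.81 to 6.95 in day 30 controls and 7.09 to 7.93 in day 30 90Sr mice. Its difference was 1.18 ± 0.32 (adjusted p = 0.049) and 1.20 ± 0.39 within the shared scan day. Alox12, platelet lipoxygenase (1.57, adjusted p = 0.058) and F2rl2, a thrombin receptor (1.45, adjusted p = 0.0997) missed the threshold. With the day 30 controls replaced the list median was 0.23, and in the authors' processed values, where 2 of the 8 genes were present, it was 0.16.

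Genes of autophagy and ubiquitin conjugation, processes that clear organelles from maturing reticulocytes among other roles, mostly had differences in the direction of the erythroid list, whose levels are given above, and its part in their result was not tested. Bnip3l is in both the autophagy and the erythroid list. Of 24 autophagy and mitophagy genes, 21 had a positive difference (9105 of all 14580 genes did) and 2 passed (1.29% of all genes were called higher). The list median was 0.60, and 0.30 with the 75th percentile, but -0.04 in the authors' processed values. Unlike the erythroid list, this list stayed below control at both days, with 90Sr effects of -0.78 at day 25 and -0.21 at day 30. From day 25 to day 30 its median change was -0.67 in controls and 0.01 in 90Sr mice. Sqstm1, the autophagy receptor p62, ranged from 5.93 to 6.59 in day 25 controls, 5.97 to 6.79 in day 25 90Sr mice, 4.38 to 5.58 in day 30 controls and 6.16 to 7.23 in day 30 90Sr mice. The groups overlapped at day 25 and were apart at day 30, and the effect went from 0.13 to 1.60, a difference of 1.47 ± 0.32 (adjusted p = 0.022). Nbr1, another autophagy receptor, showed 1.23 (adjusted p = 0.033). Of 23 ubiquitin conjugating enzymes, 2 passed (1.29% of all genes were called higher), with a list median of 0.48 (0.18 with the 75th percentile and -0.06 in the authors' values). These were Ube2h, a conjugating enzyme abundant in red cell precursors (1.44 ± 0.38, adjusted p = 0.046, with -0.03 on its other probe), and Ube2f, which conjugates NEDD8 (1.02 ± 0.25, adjusted p = 0.036, with 1.11 on its other probe).

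In 4 other lists 1 or 2 members passed, all as higher (1.29% of all genes did). Among 42 interferon-stimulated genes, 2 antiviral synthetase family members passed. Oas3 went from 0.19 to 1.51 (difference 1.32 ± 0.32, adjusted p = 0.037) and Oasl2 from -0.99 to 0.21 (1.20 ± 0.28, adjusted p = 0.030). Oasl2 was 6.33 to 7.07 in day 25 controls and 5.33 to 6.22 in day 25 90Sr mice, and 5.43 to 6.30 and 5.76 to 6.37 at day 30, so the separation at day 25 was not seen at day 30. The interferon list stayed below control at both days (effects -1.30 and -0.93), and its median difference of 0.29 became -0.01 with the 75th percentile and -0.06 with quantile normalization. Siglech, a marker of plasmacytoid dendritic cells, had a difference of 1.55 ± 0.39 (adjusted p = 0.041) in a dendritic list of 10 genes with a median of -0.03. Within the shared scan day the Siglech difference was 0.74 ± 0.39, and with the day 30 controls replaced 0.49. In day 30 90Sr mice it was 9.11 and 9.14 in replicates 1 and 2 and 10.10 to 10.55 in the others. In the cytosolic ribosomal protein list (median 0.18, and -0.12 with the 75th percentile) Rpl17, of the large subunit, had 1.09 ± 0.27 (adjusted p = 0.036), its 6 other probes gave 0.34 to 0.66, and ribosomal protein genes have near-identical copies that a probe may not separate.

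The p53 target list held a single call. Gadd45a, a stress-inducible growth arrest gene, ranged from 8.28 to 8.84 in day 25 controls, 8.22 to 9.08 in day 25 90Sr mice, 7.72 to 7.94 in day 30 controls and 8.79 to 9.32 in day 30 90Sr mice. The difference was 1.1 ± 0.24 (adjusted p = 0.023), with controls down by 0.71 (adjusted p = 0.0059). The median over the 19 p53 targets was 0.04 (-0.25 with the 75th percentile). Cdkn1a, the p21 cell cycle inhibitor, differed in the other sense. It ranged from -0.81 to 0.10 in day 25 controls, 0.35 to 1.38 in day 25 90Sr mice, -1.50 to 0.45 in day 30 controls and -1.13 to 0.45 in day 30 90Sr mice, so it was apart at day 25 and overlapped at day 30. Its effects were 1.23 and 0.15, and the difference of -1.08 ± 0.42 did not pass (adjusted p = 0.149), with -0.28 ± 0.44 within the shared scan day. The Cdkn1a probe was well above background on 1 or 2 mice of each 6, and another probe gave 0.57.

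None of the genes chosen for quantitative PCR in the study and tested here passed for the difference, Cdkn1a included. Mt2, a metallothionein, had effects of 2.10 and 2.01 (difference -0.09 ± 0.30, adjusted p = 0.919), with day 25 levels of 1.37 to 2.25 in controls and 3.38 to 4.40 in 90Sr mice and day 30 levels of 1.07 to 1.90 and 3.0 to 3.93. Unc93b1, which traffics nucleic acid-sensing receptors, had effects of -1.89 and -1.79 (difference 0.10 ± 0.39, adjusted p = 0.934). Ddb2, a DNA damage recognition protein, had -1.05 and -0.14 (difference 0.90 ± 0.52, adjusted p = 0.352). These p-values do not show that the effects were equal. Ccng1, Bbc3 and Actb did not pass the filter on variation.

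In 16 of the 24 lists no gene passed (limma, adjusted p). These lists held 454 tested genes, of which 40 were higher and 2 lower at an unadjusted p of 0.05, beside 2014 higher (13.8%) and 861 lower (5.91%) among all genes. B cell genes were strongly lower after 90Sr at both days, with list effects of -2.37 and -2.39 and 18 of 19 genes called lower at each (39.1% and 37.0% of all genes were), and a median difference of -0.08. Per mouse, the B cell list median was 5.64 to 6.21 in day 25 controls, 3.09 to 4.91 in day 25 90Sr mice, 4.99 to 6.16 in day 30 controls and 2.98 to 3.94 in day 30 90Sr mice. T cell genes had a median difference of 0.01, monocyte genes 0.22 and natural killer cell genes 0.24. The neutrophil list had effects of -0.83 and -0.43, with a median difference of 0.41 that became 1.22 within the shared scan day. Oxidative phosphorylation (0.31), cell cycle (0.24), DNA repair (0.24), proteasome (0.09), mitochondrial ribosomal protein (0.09), heat shock (0.08), immediate early (0.07), metallothionein (0.06) and spliceosome (0.03) lists, NF-kB targets (0.19) and eosinophil and basophil genes (0.28) had medians on either side of the 0.17 of all genes. The 75th percentile lowered every one of these medians by the same amount as the median of all genes.

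**Figure D4:**
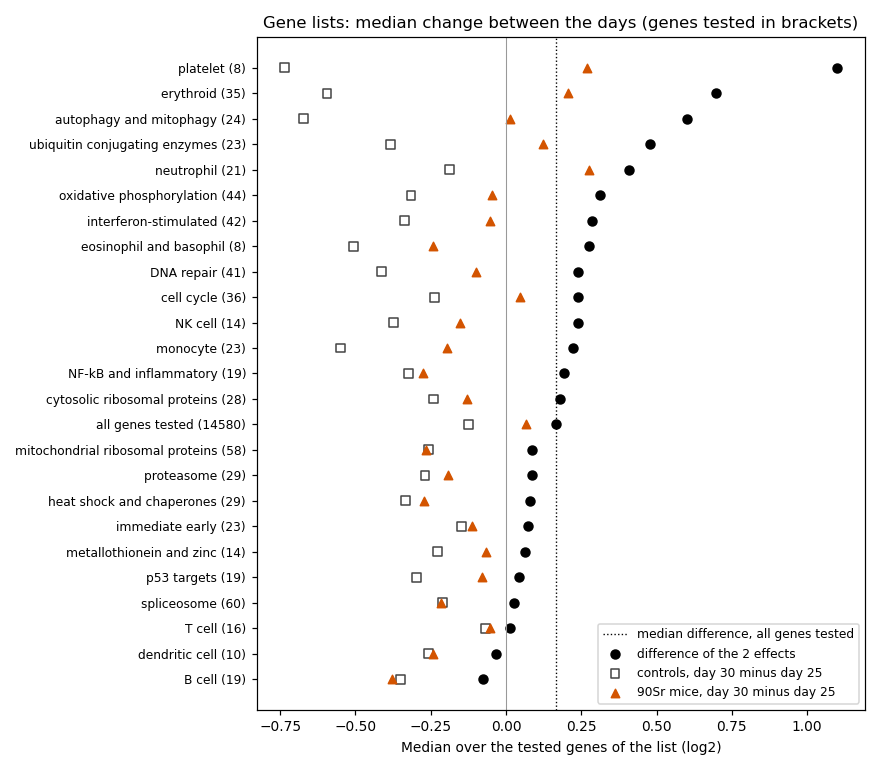
For each gene list, with the genes tested in brackets, the horizontal axis gives the median over its genes (log2) of the difference between the 2 effects (black circles), of the change in controls (open squares) and of the change in 90Sr mice (orange triangles), with the dotted line at the median difference of all genes, 0.17. Platelet (1.1), erythroid (0.70) and autophagy (0.60) lists have the highest differences, with control medians of -0.74, -0.59 and -0.67.

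The scan day and slide limited these differences. With the scan day as a block, which compares the day 30 controls with the 2 90Sr mice scanned beside them, 296 of 296 kept their sign, 248 had an unadjusted p under 0.05 and none of the genes tested passed the adjusted threshold (limma, with 1257 of all genes at an unadjusted p of 0.05). The median ratio to the original difference was 0.709. With the slide as a fixed block 294 kept their sign and 150 had an unadjusted p under 0.05, and none passed (820 of all genes at an unadjusted p of 0.05). Both fits reuse arrays that chose the 296 genes. The kept signs and unadjusted p-values are therefore not independent of that choice. Against replicates 3 to 6 only, 2336 genes passed. Among the 12 largest lower differences the within-scan-day values ranged from -2.32 to -0.51 and among the 12 largest higher ones from 0.65 to 1.57. Day 30 90Sr mice and scan day were thus confounded for 4 of 6 arrays, and their parts cannot be told apart. The days also had separate slides and scan days, in controls as in 90Sr mice. A change from day 25 to day 30 in either therefore cannot be told apart from slide or scan day.

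**Figure D5:**
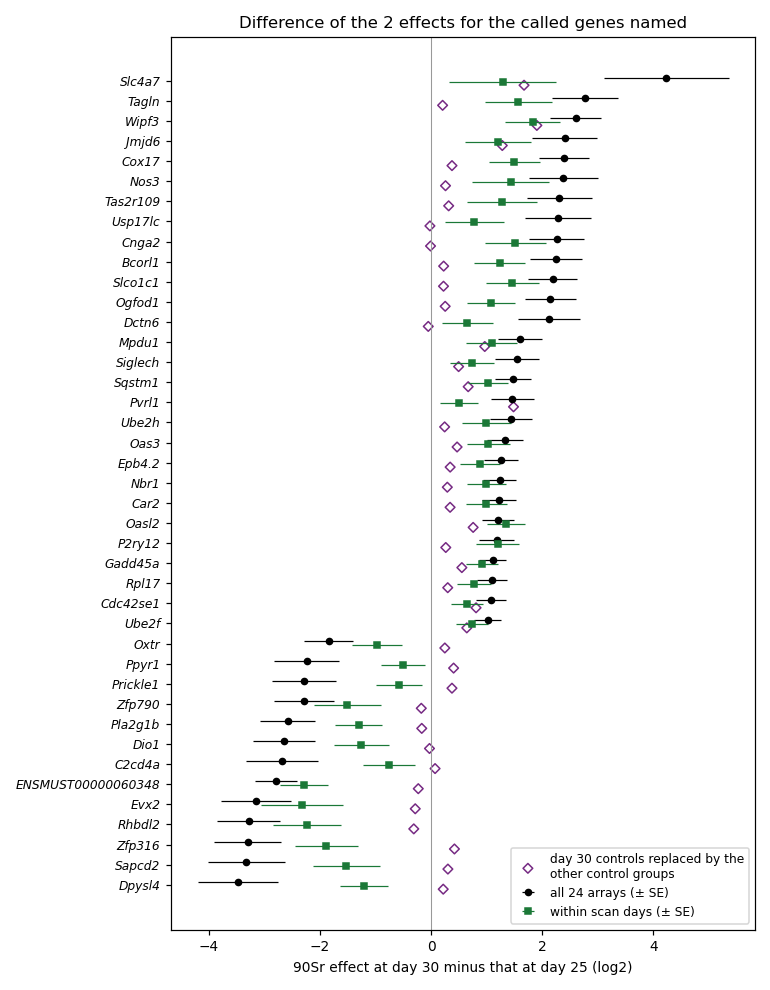
For the called genes chosen by rule and reported here, the horizontal axis gives the difference of the 2 effects (log2) with all 24 arrays (black circles, ± SE), within scan days (green squares, ± SE) and with the day 30 controls replaced by the other control groups (open diamonds). Within scan days the signs are kept and the sizes are smaller for most genes, while with replaced controls several lower differences cross zero, as in Dpysl4 at 0.22.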

How the data were processed

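Whole blood RNA of 56 mice was hybridised to 1-colour Agilent arrays, of which the 24 of days 25 and 30 were analysed here, grouped by the day and treatment in their labels. The authors deposited scanner output with an intensity per spot (gProcessedSignal, background-subtracted by Feature Extraction, version 11.5.1.1 per the file headers and 10.7 in the submitters' processing notes) and flags, recorded as other, for spots well above background, outlying or saturated. They also deposited a table of processed log2 values, used only as an alternative, whose offset from the scanner values was 1 constant for each array and whose reference is unstated. Probe positions are on mm9. No per-sample columns were left unused.

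From the 43020 non-control spots, log2 processed signal minus the array median was averaged per probe (39429 probes). Over all 56 arrays, a probe was kept if it was marked as outlying or not above background on under 25% of them and if at least 20% departed over 1.5-fold from its median, and the kept probe with the highest mean stood for a gene, leaving 14580 genes. Of these, 11612 matched RefSeq genes (10482 by accession, 1006 by symbol and 124 by synonym), and 861 carry another symbol there. Groups were fitted with limma 3.58.1 (R 4.3.3) with Benjamini-Hochberg adjustment over all genes, and array-level values were compared with exact two-sided permutation tests, whose smallest p for 6 against 6 is 0.00216. The number of arrays limits the precision. Each array is a separate mouse.

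The comparison, gene lists and members were chosen with earlier results of these data known. Genes were named by rule: the 12 largest called differences in each direction among genes well above background on at least 4 of 6 arrays of each group whose sign held under the other scalings, up to 6 genes called in opposite directions at the 2 days, up to 5 with a change under 0.25 in controls or in 90Sr mice, up to 4 per list by smallest p, and the genes measured by quantitative PCR. A few genes that met the rule are not reported here.

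On simulated data with 200 changed genes among 14580, the fit recovered 12 of 100 changes of log2 1 and 70 of 100 of log2 2, with 5 false calls, so a difference of differences near 2-fold was mostly missed at this size. Other scalings, background correction, filters, probe rules, batch terms, weights, call rules and left-out arrays were tried. The 2 scan-day subsets and the joint scaling and slide setting were chosen after seeing the data. Python 3.11.15 with numpy 2.4.6, pandas 2.3.3 and matplotlib 3.10.9 was used for tables and figures.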

Additional observations from a re-analysis of the deposited data

Results flagged for a closer look

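The 90Sr effect differed between the days in 296 genes by limma's test of the difference itself. Of 324 groups of 6 mice examined over the named genes and lists, 16 held a mouse apart from the other 5 by Dixon's criterion, where chance gives about 1 in 20 groups, so their number is near that. Replicate 1 of the day 30 controls was the lowest for Alox12 (2.59), Becn1 (5.42), Epb4.2 (4.1), Sqstm1 (4.38), Ube2h (5.34) and Wipf3 (-2.74). Replicate 4 of that group was the lowest in the list medians of DNA repair (1.12) and of autophagy and mitophagy (1.52). In day 30 90Sr mice, replicate 1 was the lowest for Becn1 (6.96), Gabarap (9.07) and Ube2h (7.15), and replicate 4 for P2ry12 (7.09). At day 25, replicate 5 of the controls was the lowest for Dpysl4 (1.28) and Mpdu1 (2.61), replicate 1 of the controls was the lowest for Zfp316 (0.47), and replicate 1 of the 90Sr mice was the highest for Cdkn1a (1.38).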

How the results depend on the processing

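The count of 296 varied more than that of either effect. It was 162 with quantile normalization, 7 with spike-in scaling, 906 of 18796 genes with the detection filter only, 449 of 8211 for probes well above background, 1057 with all 10 groups in the fit, 2630 with array weights, 1 with the slide as a random block, 3 with that and the 75th percentile, 2 with the day 30 controls replaced and 2544 with 1 control level for both days, which leaves the change in 90Sr mice. It was 0 with the slide as a fixed block, on slides holding both groups only (1036 at an unadjusted p of 0.05), with the scan day as a block, with the day 30 90Sr arrays of the controls' scan day only (1201), and with normexp (954), and 2336 with those of the other scan day. Normexp reduced the SD over genes to between 0.87 and 1.94 per array, from 2.66 to 2.93.

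Leaving out 1 array gave 60 (without day 30 90Sr replicate 5) to 1491 (without its replicate 1). It moved past 1.5 times also without day 30 90Sr replicate 2 (569), 3 (74), 4 (183) and 6 (104), day 25 90Sr replicate 1 (94), 2 (160), 3 (454), 4 (101), 5 (484) and 6 (143), day 25 control 1 (89), 3 (130), 4 (122), 5 (164) and 6 (103), and day 30 control 1 (106), 2 (191), 5 (155) and 6 (183). The change in 90Sr mice then passed in 892 to 3138 genes. With an array left out, 1032 of 1032 values of the 43 called genes named kept their direction, and under the other settings 923 of 938 did. These genes were named because they were called, and for some the rule required the sign to hold under the other scalings. These counts were thus partly set by the choice of genes.

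The replicate block gave 527 calls. After group means were removed, pairs of same-numbered arrays correlated at -0.17 to 0.39 (means per number -0.06 to 0.20), and 4 of 24 arrays correlated best with their own number, so the numbers do not pair the mice.

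For the change in controls the count was 13453 with spike-in scaling, 5 with normexp, 3769 with the detection filter only, 3703 with no filter, 1162 with the slide as a random block, 917 with that and the 75th percentile, 324 on slides with both groups, 3536 with array weights, 858 at p 0.001 with 2-fold and 1094 with 2-fold added. For 90Sr mice it was, for the same settings, 12641, 507, 2026, 1330, 480, 121, 192, 4310, 578 and 914, with 1031 in the authors' values and 252 and 3746 on the 2 scan days. The day 25 effect passed in 6448 (spike-in), 1 (normexp), 18701 (no filter), 6489 (well above background), 4 (fixed slide), 0 (both-group slides, limma), 4759 and 6062 genes (the 2 fold rules). The day 30 effect passed in 4279 (normexp), 19509 (no filter), 1620 (fixed slide), 5400 (scan day), 2020 (both-group slides), 5002 (controls' scan day only) and 6419 genes (p 0.001 with 2-fold). The changes between days could not be fitted with slide or scan day as a fixed block, since each day had its own.

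List medians that moved by over 1 SD with the 75th percentile and quantile normalization were erythroid (0.40, 0.33), oxidative phosphorylation (0.016, -0.13), DNA repair (-0.056, -0.047), spliceosome (-0.27, -0.30) and ubiquitin conjugating enzymes (0.18, 0.064), with the 75th percentile alone cell cycle (-0.057), and with quantile normalization alone T cell (-0.41), cytosolic ribosomal proteins (-0.18) and heat shock (-0.29).

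Signs turned with the day 30 controls replaced in C2cd4a (0.069), Cnga2 (-0.013), Dctn6 (-0.053), Dpysl4 (0.22), F2rl2 (-0.093), Oxtr (0.25), Ppyr1 (0.40), Prickle1 (0.37), Sapcd2 (0.30), Usp17lc (-0.023), Zfp316 (0.42) and Unc93b1 (-0.27). They also turned for Mpdu1 in the authors' values (-0.38), Ppyr1 with a fixed slide or on both-group slides (0.055), and Zfp316 without the variation filter (0.34), where another probe stands for the gene. Mt2 turned with array weights (0.030), on the other scan day (0.070) and with some arrays left out (range -0.20 to 0.0090). Unc93b1 turned with the 75th percentile (-0.20), with the slide added (-0.27), quantile (-0.32), normexp (-0.16), the authors' values (-0.24), both slide settings (-0.39), array weights (-0.18), the other scan day (-0.051) and with day 30 control replicate 4, day 25 90Sr replicate 5 or 6 left out (range over all arrays left out -0.13 to 0.24). Other causes were not tested.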

Other observations

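Levels of some genes named above in the other groups of the series belong to no comparison made here. Oxtr ranged from 3.06 to 5.05 in day 4 controls and 3.56 to 5.69 in day 4 90Sr mice, from 0.67 to 1.18 in day 25 controls and from 3.10 to 5.16 in day 30 controls, while day 7 controls were at 1.60 to 1.87 and day 9 controls at 0.96 to 2.43. Tagln ranged from 7.77 to 8.23 in day 4 controls, 9.84 to 10.59 in day 7 controls and 8.44 to 10.19 in day 9 controls, all above the 5.79 to 7.68 of the day 30 controls.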
